A study of Mus musculus with 18 samples.

Results

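The genes described here encode the protein components of the cytosolic ribosome. They were chosen by symbol: Rpl or Rps followed by a digit, or Rplp0, Rplp1, Rplp2 or Rpsa, without the Rps6k kinases, Rps19bp1 and pseudogene symbols ending in -ps. Of 17711 genes with a probe assigned to 1 symbol, 57 met the rule. Of these, 53 were measured among 10806 genes in all, 36 of the large and 17 of the small subunit, each read from its probe with the highest mean. The other 4 were detected on at most 1 array by any probe and are not described further: Rpl17, Rpl39l, Rpsa and Rps23rg1, the last of which meets the rule by symbol but is not a ribosomal protein. Of the 53, 50 were detected on all 18 arrays.

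The samples followed the foreign body response in MacGreen mice, a C57Bl/6J line aged 10 to 16 weeks whose EGFP transgene is driven by the Csf1r promoter and marks myeloid cells. Sterile objects were left free in the peritoneal cavity, and cells were taken either by lavage of the cavity at day 2, 4, 7 and 14 or by collagenase digestion of the tissue capsule around the object at day 7, 14, 21 and 28. Lavage cells of mice with no implant served as day 0. All cells were sorted for bright EGFP and pooled, and total RNA was measured on Illumina mouse bead arrays, 2 arrays for each of 9 groups. Whether a group's 2 arrays held RNA of different animals is not stated in the labels, so the p-values measure only the spread between arrays, which may be technical. The number of arrays limits the precision. Of 16 myeloid identity markers, 12 were measured (Csf1r was not), and their mean log2 level was 12.04 to 13.03 in the 9 groups, with 11 or 12 of them detected on both arrays of each group.

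The ribosome joins a small subunit, which reads the messenger RNA, to a large subunit, which forms the peptide bond, and each ribosomal protein is made in near equal number to the others. Most mammalian ribosomal protein messages start with a C followed by a run of C and U letters, the 5′ terminal oligopyrimidine (TOP) motif, through which mTORC1 and LARP1 set how much of the message is translated. Several ribosomal proteins have a second, similar gene (a paralog) whose product can take the same place in the ribosome, and a few, such as Rpl5 and Rpl11, bind Mdm2 when ribosome assembly is disturbed. Growing and dividing cells are known to build more ribosomes.

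The start regions of several members are shown because the TOP motif is the feature most ribosomal protein genes share. Of the 53 measured genes, 43 matched a RefSeq promoter (GRCm38.p6), and 36 of these 43 (83.72%) had a run of at least 8 C or T letters on the gene's strand within 50 bases of an annotated start, against 39.27% of 27025 genes. CTCTTTC was present on the gene's strand in the same window of 7 of the 43 (16.28%) and of 1.617% of all genes. Over the whole window of 300 bases, CCGGAAG on either strand was present in 14 members (32.56%) and in 9.928% of all genes, and AAGATGGC on either strand in 6 members (13.95%) and in 3.19%. CTCTTTC is made of 7 C and T letters and so can be part of such a run, and CCGGAAG can overlap one when read on the other strand. The stretches below run from 40 bases before to 20 bases after the annotated start, on the gene's strand, with the longest run of C and T letters in capitals. Where a gene had several annotated starts, the one with the longest run in this stretch is shown. The other annotated start of Rpl22, at the beginning of the gene, had a longest run of only 5 letters within 50 bases. The first 4 carry that run across the start and were chosen to show it. The letter at the annotated start is C in Rpl28, Rpl35 and Rps18 but T in Rpl27a, so such a run is not in itself a TOP motif. The next 7 are the paralogs and partners described with the results, of which Rps27 has its run across the start, and the others have it before or after the start.
Rpl28, chr7:4792925-4792984, plus strand: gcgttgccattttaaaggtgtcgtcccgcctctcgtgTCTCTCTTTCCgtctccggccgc
Rpl35, chr2:39005112-39005171, minus strand: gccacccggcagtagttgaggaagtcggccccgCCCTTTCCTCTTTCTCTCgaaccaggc
Rps18, chr17:33955646-33955705, minus strand: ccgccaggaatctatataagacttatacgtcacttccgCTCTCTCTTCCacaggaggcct
Rpl27a, chr7:109519155-109519214, plus strand: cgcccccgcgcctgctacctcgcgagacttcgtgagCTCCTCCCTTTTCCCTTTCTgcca
Rpl22, chr4:152325686-152325745, plus strand: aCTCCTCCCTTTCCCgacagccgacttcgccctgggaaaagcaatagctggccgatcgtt
Rpl22l1, chr3:28805468-28805527, plus strand: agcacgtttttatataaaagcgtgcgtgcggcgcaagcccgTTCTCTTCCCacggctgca
Rps27, chr3:90213629-90213688, minus strand: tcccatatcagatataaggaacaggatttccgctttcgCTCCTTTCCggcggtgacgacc
Rps27l, chr9:66946046-66946105, plus strand: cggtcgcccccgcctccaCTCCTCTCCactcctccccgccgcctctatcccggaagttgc
Rpl36a, chrX:134585614-134585673, plus strand: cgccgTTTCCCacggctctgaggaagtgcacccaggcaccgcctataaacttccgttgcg
Rpl36al, chr12:69184048-69184107, minus strand: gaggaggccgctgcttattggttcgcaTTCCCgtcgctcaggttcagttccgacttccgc
Rpl3l, chr17:24727786-24727845, plus strand: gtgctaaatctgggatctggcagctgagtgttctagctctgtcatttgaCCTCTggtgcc

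The ribosomal protein genes as a set moved little between the 9 groups, while a minority of them passed a test for any difference. Levels are log2 intensities after background correction and quantile normalisation, and a gene passed a test when its Benjamini-Hochberg adjusted p in limma, over all 10806 genes, was under 0.05. In the F test for any difference among the 9 groups, 22 of the 53 members passed (41.5%), against a background of 78.7% of all genes. The distance from a gene's lowest to its highest group mean had a median of 0.45 log2 units over the members and 1.05 over all genes. The median member level lay between 14.33 and 14.53 in the 9 groups. Raw intensity in the members made up 2.85% to 3.86% of the summed intensity of an array, and was highest on the arrays of lavage day 14. In bulk RNA of this kind, a change in the mix of cells and a change in RNA per cell cannot be told apart.

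**Figure D1:**
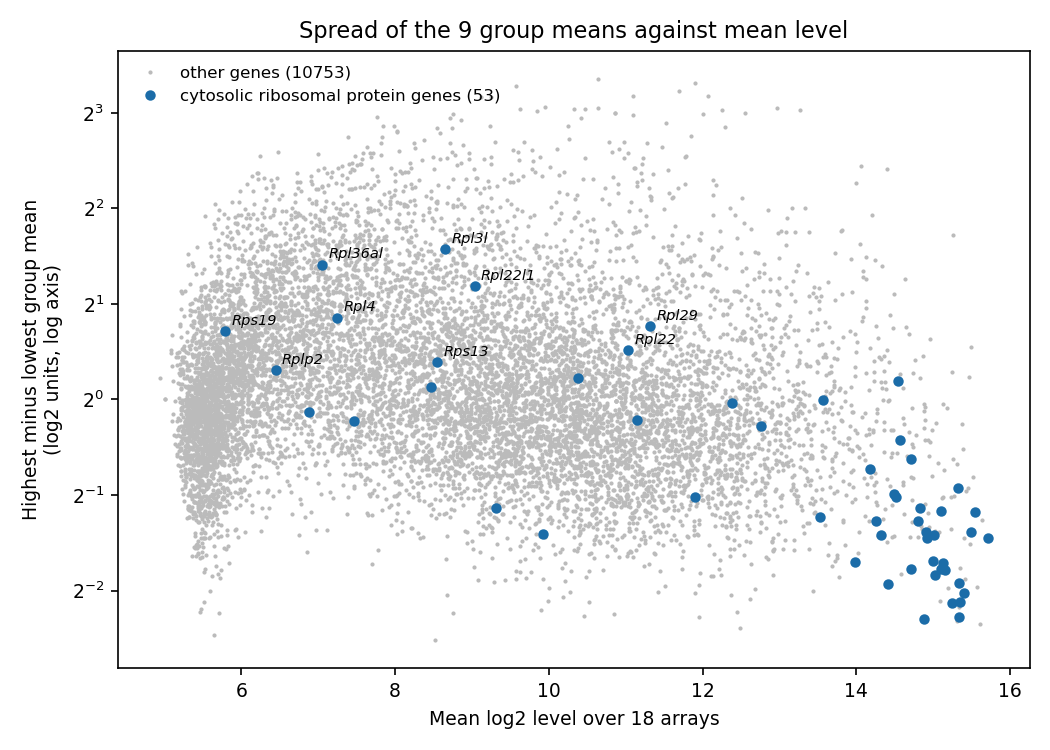
Distance between the lowest and highest of the 9 group means (log2 units, log axis) against mean log2 level over 18 arrays, 1 point per gene. Of the 53 ribosomal protein genes, 31 lie at a mean level of 14 or more, and the members named in the plot have spans of 1.24 to 2.98.

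Position on the scale went with how often a member passed. Of the 31 members with a mean level of at least 14, 5 passed the F test (16.1%) and their median span was 0.37, whereas of the other 170 genes at that level 75.3% passed with a median span of 0.75. The 2 sets were not at equal level, with median levels of 14.999 and 14.47. Of the 22 members below 14, 17 passed (77.3%), near the share of all genes. Among them, Rps19, Rplp2, Rpl14, Rpl4, Rps15a, Rpl21 and Rps13 had mean levels of 5.79 to 8.55, against a median of 14.49 over all members. How well such dim probes report the main message was not tested. Each of the 31 members at 14 or more had a 95% confidence interval inside a 2-fold change in all 10 comparisons of 2 groups. No bound lay farther than 0.95 log2 units from 0 in either direction. These intervals were not set against those of the other 170 genes. Rpl13, Rps28, Rpl36a and Rps20 had the largest F-test p among the members, with adjusted p of 0.836, 0.66, 0.66 and 0.629. Rpl13 had group means between 15.21 and 15.42, and Rps28 between 14.77 and 14.97.

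The abundant members sat near the top of the instrument's range. On slides 1 and 2, which held all lavage arrays and capsule day 7, 9 members reached an intensity of 50000 and 3 of them (Rpl41, Rps9 and Rps29) 60000. The brightest probe of any kind had 64122 to 71532 on these slides, but 40761 to 45589 on slide 3 (capsule day 14) and slide 4 (capsule day 21 and 28). Mean intensity was 585 to 1053 on slides 1 and 2 and 455 to 528 on slides 3 and 4. Capsule day 14 and later therefore cannot be told apart from slide when set against lavage or capsule day 7. Rpl41, the shortest ribosomal protein, had group means between 15.46 at capsule day 21 and 15.82 at lavage day 4, and its F test did not pass (adjusted p = 0.133). Rps9, Rps29 and Rpl37 had group means of 15.30 to 15.74, 15.25 to 15.63 and 15.29 to 15.53, and none passed the F test (adjusted p = 0.282, 0.0904 and 0.545). Ribosomal protein genes have many processed pseudogenes, and whether a probe also bound their transcripts was not tested.

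**Figure D2:**
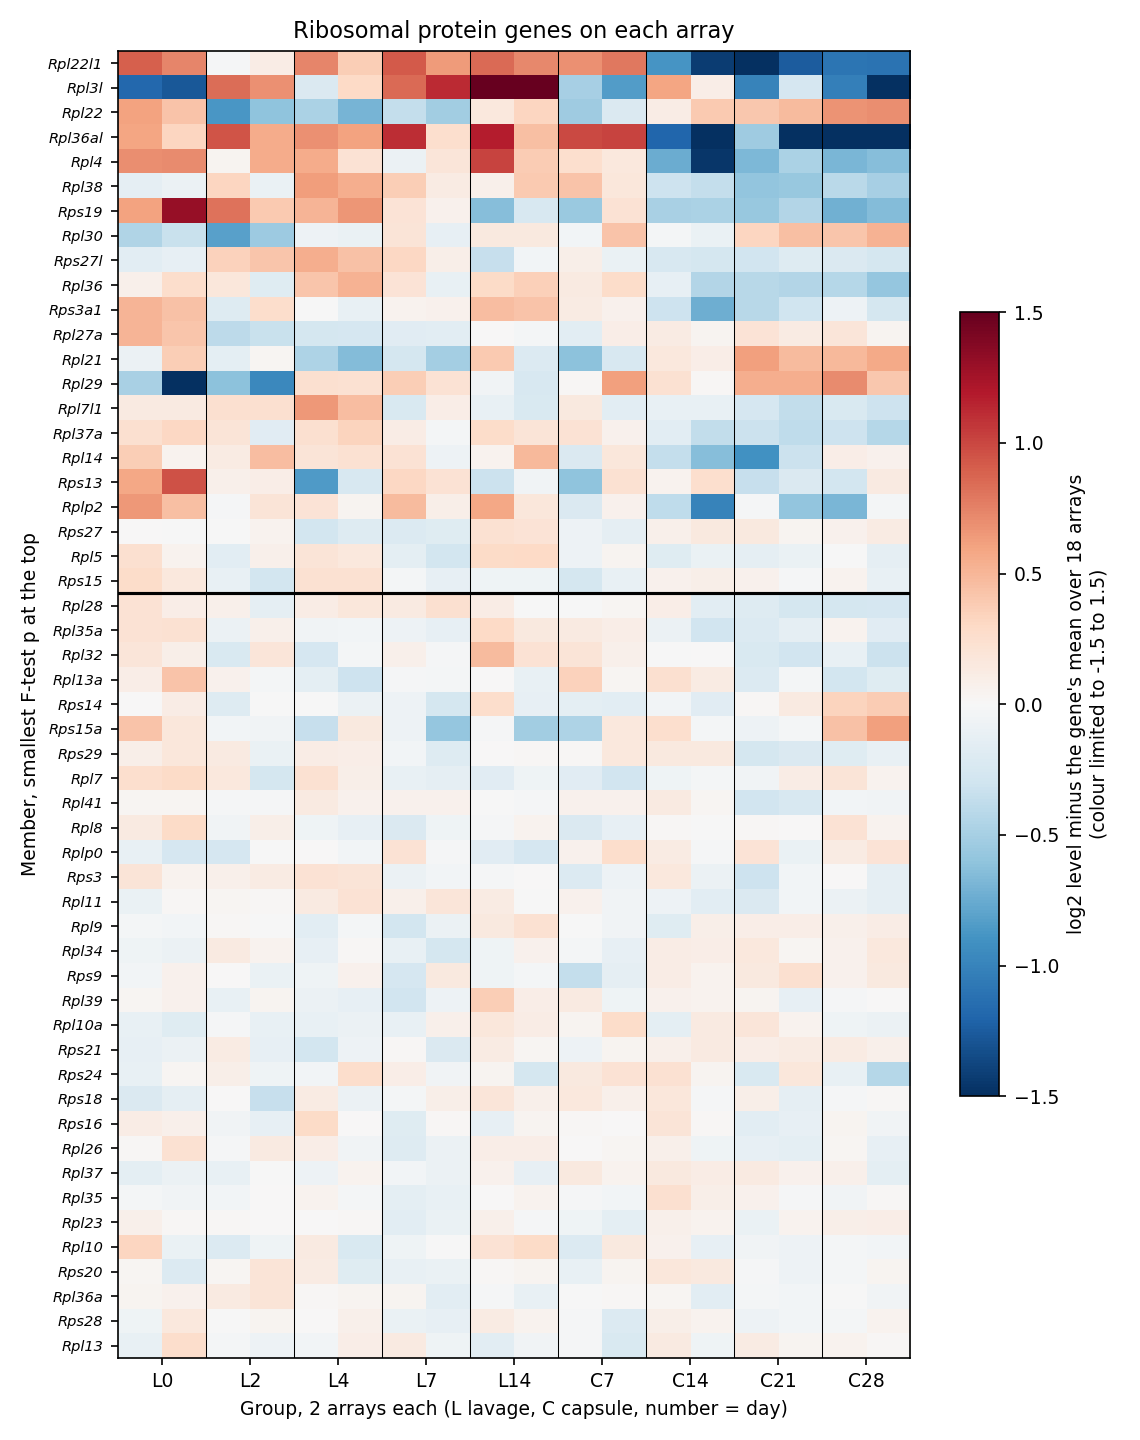
Log2 level of each of the 53 members minus its own mean, 1 column per array, with members ordered by the F-test p; the 22 above the black line passed. Colour is strong in the upper rows, where Rpl22l1, Rpl36al and Rpl4 turn from red to blue after capsule day 7, and pale below the line.

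Lavage against day 0 asks how the cells of the cavity changed after implantation. At day 2, 6 members passed, 2 higher and 4 lower (background 25% of all genes). At day 4, 11 passed, 5 higher and 6 lower (background 28.0%). At day 7, 5 passed, 2 higher and 3 lower (background 28.6%), and at day 14, 6 passed, 3 higher and 3 lower (background 19.8%). The median log2 difference of the members was -0.08, -0.01, -0.14 and -0.03 at the 4 times, beside 0.04, 0.04, 0.01 and 0.03 over all genes. Across the 4 times, 15 members passed at least once and 2, Rpl3l and Rpl27a, passed at each. The 4 comparisons share the day 0 arrays. Scaling arrays by their medians in place of quantiles moved the median over all genes at day 14 to -0.29. At this scaling 14 members passed, 2 higher and 12 lower, a count not set against other genes here.

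Rpl3l, the paralog of Rpl3 known from mouse heart and skeletal muscle, rose most. Its log2 level was 7.47 and 7.37 on the day 0 arrays, 9.48 and 9.33 at day 2, 8.43 and 8.95 at day 4, 9.49 and 9.77 at day 7, and 10.36 and 10.30 at day 14. In the capsule it was 8.16 and 7.80 at day 7, 9.24 and 8.75 at day 14, 7.65 and 8.40 at day 21, and 7.62 and 7.09 at day 28. The day 0 arrays were thus below every other lavage array, the day 14 lavage arrays were above all others, and capsule day 28 was back among the lowest. The rise was 3.96-fold at day 2 (log2 1.99, SE 0.26, adjusted p = 7.84e-05) and 7.51-fold at day 14 (log2 2.91, SE 0.26, adjusted p = 2.86e-06). At day 14 it was 2.89 within slide 1 and 2.93 within slide 2. Rpl3l has 1 probe, and Rpl3 itself was not analysed here.

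Rpl22, an RNA-binding protein of the large subunit that mouse T cells need for their development, fell early in the lavage and returned. Its levels were 11.64 and 11.47 at day 0, 10.16 and 10.42 at day 2, 10.56 and 10.33 at day 4, 10.67 and 10.52 at day 7, and 11.19 and 11.36 at day 14. The arrays of day 2, 4 and 7 were all below those of day 0 and day 14. The fall was 2.4-fold at day 2 (log2 -1.26, SE 0.16, adjusted p = 5.04e-05), 2.155-fold at day 4 and 1.94-fold at day 7. At day 14 the difference from day 0 was -0.28 (95% interval -0.62 to 0.07), and it did not pass. From day 7 to day 14 Rpl22 rose by 0.68 (SE 0.16, adjusted p = 0.0128), but with median scaling this difference was 0.23 and did not pass (adjusted p = 0.311), nor did it without replicate 2 of either day (0.0972 and 0.067).

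Rpl22l1, the paralog that Rpl22 protein holds down in mouse, did not mirror it in the lavage. It read 9.94 and 9.76 at day 0, 9.02 and 9.14 at day 2, 9.76 and 9.40 at day 4, 9.96 and 9.67 at day 7, and 9.89 and 9.76 at day 14. Both day 2 arrays lay below every other lavage array. At that time it fell 1.71-fold (log2 -0.77, SE 0.20, adjusted p = 0.0105), in the same direction as Rpl22. This call ended without replicate 1 of day 0 (adjusted p = 0.0796) or replicate 1 of day 2 (0.0737). At day 7 its difference from day 0 was -0.04 (95% interval -0.46 to 0.39). Rpl22 lies on chromosome 4 (152324436 to 152334082) and Rpl22l1 on chromosome 3 (28805508 to 28807424) of GRCm38.p6.

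Among the small subunit genes, Rps27l, a paralog of Rps27 known in human cells as a p53 target, rose early. It read 14.41 and 14.44 at day 0, 14.91 and 14.98 at day 2, 15.11 and 14.998 at day 4, 14.88 and 14.65 at day 7, and 14.22 and 14.52 at day 14. All arrays of days 2 to 7 were above both day 0 arrays, and day 14 lay on either side of them. The rise passed at day 2 (1.43-fold, adjusted p = 0.0128) and day 4 (1.55-fold, log2 0.63, SE 0.14, adjusted p = 0.00373). The day 2 call ended without either day 0 array (0.0679 and 0.0577) or replicate 2 of day 2 (0.0665). Rps27, its partner, read 14.84 and 14.82 at day 0, 14.55 and 14.63 at day 4, and 15.06 and 15.03 at day 14. Its rise from day 7 to day 14 was 1.33-fold (log2 0.41, SE 0.11, adjusted p = 0.0298), and this call ended without any 1 of the 4 arrays (adjusted p up to 0.126), in the 2 groups alone (0.206), with the replicate block (0.0782) and under median scaling (0.0904).

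**Figure D3:**
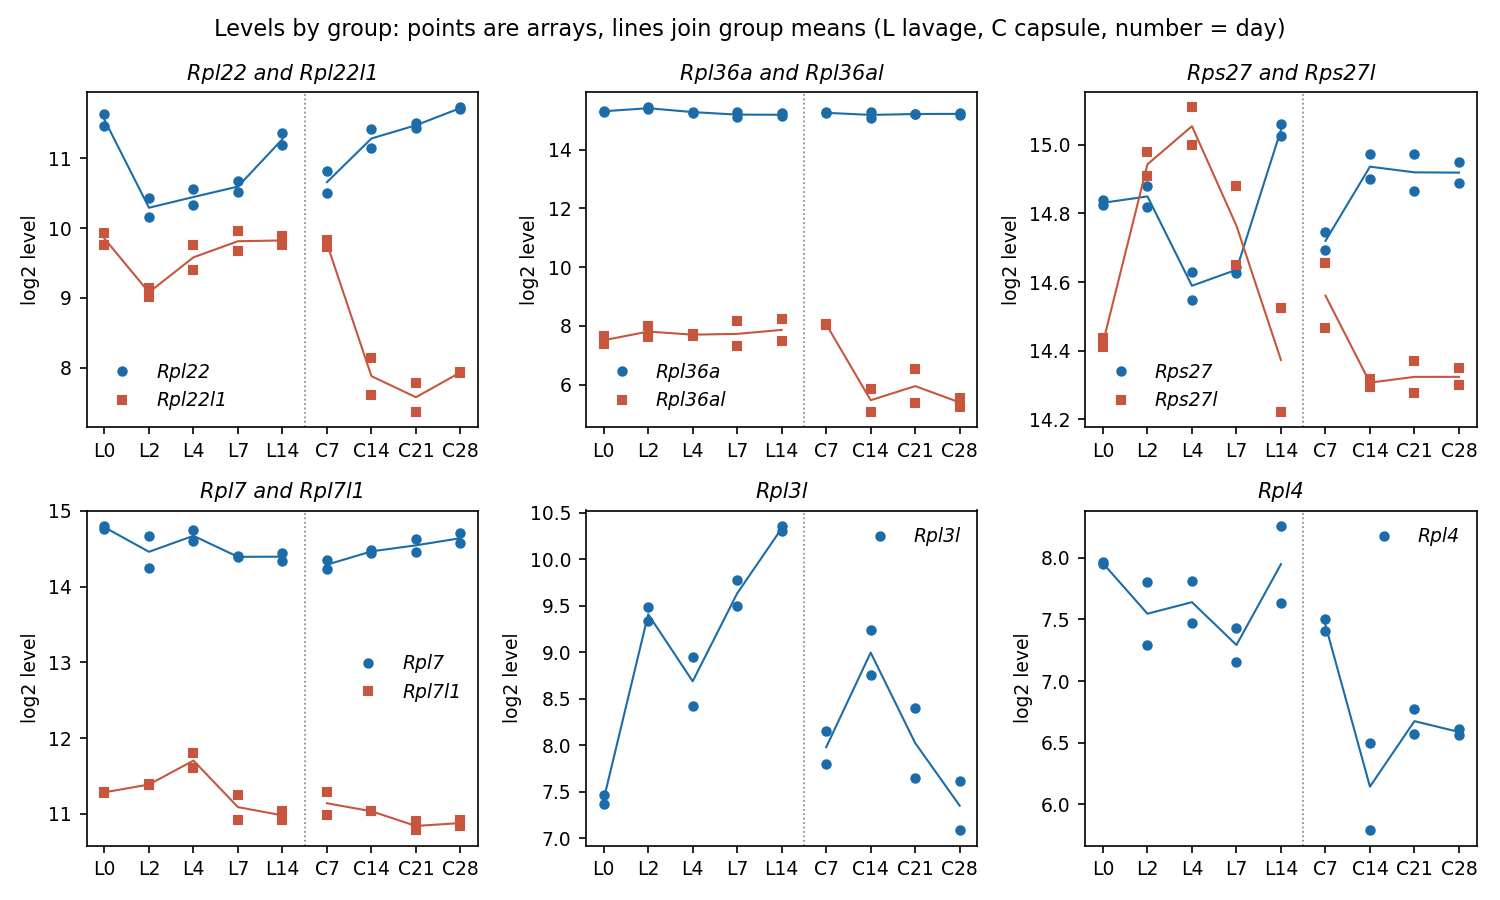
Log2 level (vertical axis, own scale in each panel) of paralogs, their measured partners, Rpl3l and Rpl4 in the 9 groups; points are arrays and lines join group means, with lavage left and capsule right of the dotted line. Rpl22l1, Rpl36al and Rpl4 drop after capsule day 7, while Rpl22 rises from 10.66 to 11.72 and Rpl36a stays between 15.18 and 15.41.

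The other lavage changes were of single members in either direction. Rpl27a, a large subunit protein, read 13.28 and 13.17 at day 0 and between 12.37 and 12.76 on the other 8 lavage arrays. It fell 1.77-fold at day 2 (log2 -0.82, SE 0.13, adjusted p = 0.000248) and was 1.39-fold lower at day 14 (adjusted p = 0.0162), a call that ended without replicate 1 of day 0 (0.106) or either day 14 array. Its second probe gave -0.71 at day 2 and -0.84 at day 14, in the same direction. Rps15 was 1.33-fold lower at day 2 (adjusted p = 0.0244), but its call ended with median scaling (-0.23), with the replicate block (0.0577) and without either day 0 array or replicate 2 of day 2. Rpl38, which in mouse embryos is needed for translation of Hox messages, was 1.62-fold higher at day 4 (log2 0.70, SE 0.16, adjusted p = 0.00586). Its second probe gave 0.25 and did not pass.

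Rps13 and Rps19 are small subunit proteins, and RPS19 is the gene most often mutated in human Diamond-Blackfan anaemia. Rps13 read 9.13 and 9.50 at day 0, 7.70 and 8.31 at day 4, and 8.23 and 8.50 at day 14. It was lower at day 4 (log2 -1.31, SE 0.26, adjusted p = 0.00178) and day 14 (log2 -0.96, SE 0.26, adjusted p = 0.0178). The day 14 call ended without replicate 2 of day 0 (adjusted p = 0.149) or replicate 1 of day 14 (0.115). Rps19 was detected on 9 of the 18 arrays, and on neither array of lavage day 14, where it was at least 1.92-fold lower than at day 0 (adjusted p = 0.0015). Its second probe gave 0.0064 for that difference and 1.10 at day 4 against day 0, so the direction rests on 1 probe. Rps19 also passed at day 7 against day 0 (log2 -0.83), where the second probe gave -0.23 and did not pass. The day 7 call ended in the 2 groups alone (adjusted p = 0.052), without replicate 2 of day 0 (-0.48) and without either day 7 array.

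Rpl29, a small basic protein that mice can live without, was the member whose replicates differed most at day 0, with 10.83 and 9.52. It read 11.56 and 11.55 at day 4, 11.69 and 11.53 at day 7, and 11.27 and 11.08 at day 14. It was 2.6-fold higher at day 4 (log2 1.38, SE 0.32, adjusted p = 0.00494), 2.7-fold at day 7 (adjusted p = 0.00359) and 1.99-fold at day 14 (adjusted p = 0.0397). Without replicate 2 of day 0 the difference was 0.72 at day 4 and 0.34 at day 14, and neither passed, while at day 7 it was 0.78 and passed. At day 14 the call also ended without either day 14 array and under median scaling (adjusted p = 0.166). It ended too with the submitters' log2 values (0.0592), without the detection filter (0.0648), with the replicate block (0.0686) and in the 2 groups alone (0.136). At day 4, Rpl7l1 was 1.34-fold higher, and Rpl21, Rpl13a and Rps3a1 were 1.61-, 1.41- and 1.45-fold lower. The other probes of Rpl21 gave -0.45 and 0.13 and did not pass, and its call also ended with the replicate block (adjusted p = 0.0614) and without replicate 2 of day 0, at -0.46, or either day 4 array. Rpl13a, known in human myeloid cells as part of a complex that silences inflammatory messages, gave -0.47 with its second probe.

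Cell type markers moved beside these differences. B cell markers had a mean log2 level of 9.47 at day 0 and 8.11 to 8.32 at the later lavage times, with 7 of 9 measured markers lower at day 2. Their summed level was 11997 to 12595 at day 0 and 4271 to 6893 at the later lavage times. Cd79a, which defines B cells, had a group mean of 10.71 at day 0, 9.01 to 9.25 at the later lavage times and 4.997 to 5.58 in the capsule. The summed level of the list was nevertheless 4433 to 8214 in the capsule, where Blnk, another of its members, had group means of 12.08 to 12.83 against 10.22 to 11.11 in the lavage. Neutrophil markers rose at day 2 (7 of 10 higher), from a summed level of 10155 to 10391 at day 0 to 58147 to 84451. Resident peritoneal macrophage markers fell at day 2 (8 of 9 lower), from 128202 to 142850 down to 12499.7 to 18475. The part of these cells in the members' differences was not tested.

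The step from day 2 to day 4 and from day 7 to day 14 gave few changes. From day 2 to day 4, 2 members passed, both higher (background 11.3%): Rpl30 by 0.59 (SE 0.16, adjusted p = 0.0319) and Rps15 by 0.43 (SE 0.12, adjusted p = 0.0393). With the replicate block neither passed (adjusted p = 0.0745 and 0.0894). Rpl30 also lost its call without replicate 1 of day 2 (0.46, adjusted p = 0.201) or either day 4 array, and Rps15 without any 1 of the 4 arrays (adjusted p up to 0.218). Rpl30 read 13.73 and 13.99 at day 2 and 14.46 and 14.44 at day 4, and was at 14.95 and 15.05 by capsule day 28. At lavage day 14 Rpl30 also passed against day 0 (log2 0.54). That call ended with the replicate block (adjusted p = 0.0721), in the 2 groups alone (0.0689) and without any 1 of the 4 arrays, at differences of 0.48 to 0.59. From day 7 to day 14, 3 members passed, all higher (background 13.1%): Rpl22, Rps27 and Rpl5, which with Rpl11 and 5S RNA binds Mdm2. Rpl5 rose by 0.50 (SE 0.13, adjusted p = 0.0207), and its second probe gave 0.67, but the call ended without any 1 of the 4 arrays (adjusted p up to 0.13), with the replicate block (0.0614) and under median scaling (0.0911). Under median scaling, all genes together had a median of -0.35 from day 7 to day 14, and 5 members passed, all lower. This count is not set against other genes here.

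Genes that build the ribosome and those of the mitochondrial ribosome gave other counts at lavage day 4. Of 63 measured ribosome biogenesis genes (80 listed), 29 passed higher and 0 lower against day 0, with a median of 0.55, beside 5 higher and 6 lower of the 53 ribosomal protein genes with a median of -0.01. Over all genes 1659 were higher and 1365 lower. Nhp2, a box H/ACA ribonucleoprotein subunit, rose by 1.10 (SE 0.15, adjusted p = 0.000105), and Nop58, its box C/D counterpart, by 1.03 (SE 0.16, adjusted p = 0.000313). Riok1, a kinase of late small subunit assembly, rose by 2.91 (SE 0.40, adjusted p = 0.000119). From day 2 to day 4, 17 of the 63 were higher and 0 lower (background 11.3% of all genes). Among them was Gnl3, the nucleolar protein nucleostemin, by 1.07. At day 7 against day 0 the same list had 2 higher and 8 lower (background 28.6%).

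**Figure D4:**
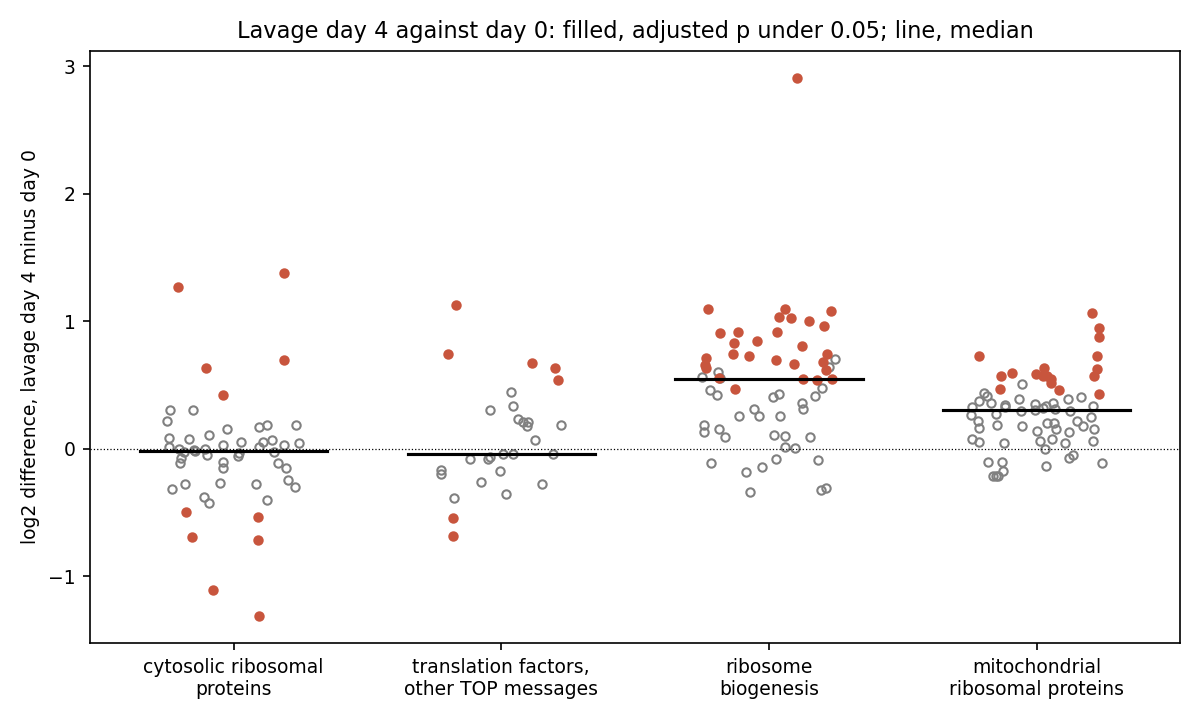
Log2 difference of lavage day 4 minus day 0 for each measured gene of 4 lists; filled points passed and the bar is the list's median. The medians are -0.01 for cytosolic ribosomal proteins, -0.04 for translation factors, 0.55 for ribosome biogenesis and 0.31 for mitochondrial ribosomal proteins.

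Of the 71 measured mitochondrial ribosomal protein genes, 18 were higher and 0 lower at day 4 (background 28.0% of all genes). At day 7, 21 were higher and 0 lower (background 28.6%). Mrpl54 rose by 0.95 at day 4 (SE 0.17, adjusted p = 0.00104). Among 29 measured translation factors and other TOP messages, 5 were higher and 2 lower at day 4, with a median of -0.04. Eif5a, which helps the ribosome through difficult stretches, rose by 1.12 (SE 0.13, adjusted p = 2.38e-05) and Eif4a1, the cap-complex helicase, by 0.64. Fau, which encodes the small subunit protein eS30 and was the only measured one of 4 listed ribosomal proteins with another symbol, gave 0.21 (adjusted p = 0.219). Of 36 genes of mTORC1, S6 kinase and MYC control, 6 were higher and 5 lower (background 28.0% of all genes). Slc7a5, an amino acid transporter, rose by 2.33 (SE 0.17, adjusted p = 5.01e-07) and Mxd3 by 1.36, while Sesn3 gave -1.31. Myc gave 0.72 at day 4 against day 0 (SE 0.21, adjusted p = 0.0188) and 1.40 from day 2 to day 4 (SE 0.21, adjusted p = 0.000683). Cell cycle markers were higher for 11 of 12 at day 4 and at day 7, and their part in these counts was not tested.

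Capsule against lavage compares cells on the object with cells in the cavity at the same time. At day 7, when both lay on slides 1 and 2, 1 of the 53 members passed, lower in the capsule (background 24.1%). That member was Rpl3l, at 8.16 and 7.80 in the capsule and 9.49 and 9.77 in the lavage, 3.14-fold lower (log2 -1.65, SE 0.26, adjusted p = 0.000433). The difference was -1.34 within slide 1 and -1.97 within slide 2. The median difference of the members was 0.06, and 50 of the 53 had a 95% interval inside a 2-fold change either way, against 72.7% of all genes. At the same time dissociation stress markers were higher in the capsule for 12 of 12 measured genes, with mean levels of 12.04 against 9.35, and cell cycle markers lower for 10 of 12. Their part in this comparison was not tested.

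At day 14, 12 members passed, all lower in the capsule (background 35.3%), with a median difference over the 53 of -0.02. Capsule day 14 was on slide 3 and lavage day 14 on slides 1 and 2, so slide and place cannot be told apart. Rpl22l1 read 8.14 and 7.61 in the capsule and 9.89 and 9.76 in the lavage, 3.85-fold lower (log2 -1.95, SE 0.20, adjusted p = 5.44e-06). Rpl36al, a close paralog of Rpl36a, read 5.86 and 5.07 against 8.22 and 7.50, and fell by 2.40 on the log2 scale (SE 0.37, adjusted p = 0.00023). It was not detected on the second capsule array, so the size is uncertain, and it passed in each alternative at differences of -3.49 to -1.43. Rpl4, whose extension lines the peptide exit tunnel, read 6.50 and 5.79 against 8.26 and 7.64, 3.49-fold lower (log2 -1.80, SE 0.25, adjusted p = 8.5e-05). Its probe had a mean level of only 7.25, and how well it reports the main message was not tested. For each of these genes no capsule array reached the lower lavage array, as was required for naming them. Rpl36a itself had a 95% interval of -0.27 to 0.26 for this difference.

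Smaller falls at day 14 were those of Rpl3l (2.52-fold), the stalk protein Rplp2 (2.09-fold), Rps3a1, which lies by the messenger RNA exit (1.96-fold), Rpl14 (1.71-fold), Rpl36 (1.52-fold), Rpl38 (1.48-fold), Rpl37a (1.41-fold), Rpl5 (1.35-fold) and Rpl35a (1.33-fold). Rplp2 lost its call without replicate 1 of lavage day 14 or replicate 2 of capsule day 14. Second probes of Rpl4 and Rpl5 gave -0.88 and -0.97, in the same direction, and that of Rpl38 gave 0.20. With median scaling 7 members passed, all lower, a count not set against other genes here. Rpl22 differed by 0.01 between capsule and lavage at day 14 (95% interval -0.33 to 0.35).

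Rplp2, which with Rplp1 forms the stalk that recruits elongation factors, read 6.07 and 5.45 in the day 14 capsule and 7.03 and 6.62 in the lavage of that day. Its second capsule array was the one array on which it was not detected. Rps3a1 read 13.25 and 12.83 in the capsule and 14.02 and 13.99 in the lavage. Both genes had all their capsule arrays below their lavage arrays, as was required for naming them. Rpl14, a large subunit protein, read 6.52 and 6.23 against 6.93 and 7.37, and was back at 6.97 and 6.95 by capsule day 28.

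At capsule day 14 against lavage, genes that make the ribosome and those of the mitochondrial ribosome passed in shares below the 35.3% of all genes. Of the 63 ribosome biogenesis genes 3 were higher and 14 lower, and of the 71 mitochondrial ribosomal protein genes 2 were higher and 13 lower, beside 1818 higher and 1992 lower of all genes. Las1l, part of the complex that cuts the second internal spacer of the ribosomal RNA precursor, fell by 2.17 (SE 0.19, adjusted p = 1.22e-06), and Mrpl13 fell by 1.61 (SE 0.16, adjusted p = 3.84e-06). Of 29 translation factors and TOP messages 2 were higher and 7 lower, with falls in the initiation factor subunits Eif3m (by 2.08) and Eif3e (by 1.28). Of 15 genes of ribosome stress, 5 were higher and 1 lower, with Cdkn1a up by 1.86 (SE 0.13, adjusted p = 2.4e-07) and Mdm2, the p53 ligase that Rpl5 binds, up by 1.03 (SE 0.14, adjusted p = 6.81e-05). Dissociation stress markers were higher in the capsule for 12 of 12 measured genes here too, and fibroblast and mesothelium markers for 4 of 5, with summed levels of 1989 to 2217 against 296 to 335 in the lavage. Resident macrophage markers were lower for 6 of 9 (23384 to 23900 against 57356 to 71423), and B cell markers lower for 5 of 9 and higher for 1. The part of these cells in the day 14 differences was not tested.

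The difference between capsule and lavage was itself compared between day 14 and day 7. Here 7 members passed, all with a more negative difference at day 14 (background 11.5%): Rpl36al, Rpl4, Rpl22l1, Rps3a1, Rpl36, Rpl35a and Rpl5. Rpl22l1 differed by -0.04 between capsule and lavage at day 7 and by -1.95 at day 14, and the term was -1.91 (SE 0.28, adjusted p = 0.001). Rpl36al gave 0.33 and -2.40, with a term of -2.72 (SE 0.53, adjusted p = 0.00518) that ranged from -3.86 to -1.66 over the alternatives, with 1 of its 2 capsule day 14 arrays not above background. The call of Rps3a1 ended without replicate 2 of capsule day 14 (-0.80, adjusted p = 0.0654) and under median scaling (0.0697). For Rpl3l the term was 0.32 (95% interval -0.49 to 1.12) and did not pass. The second probe of Rpl4 gave -1.09 and that of Rpl5 -1.20.

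**Figure D5:**
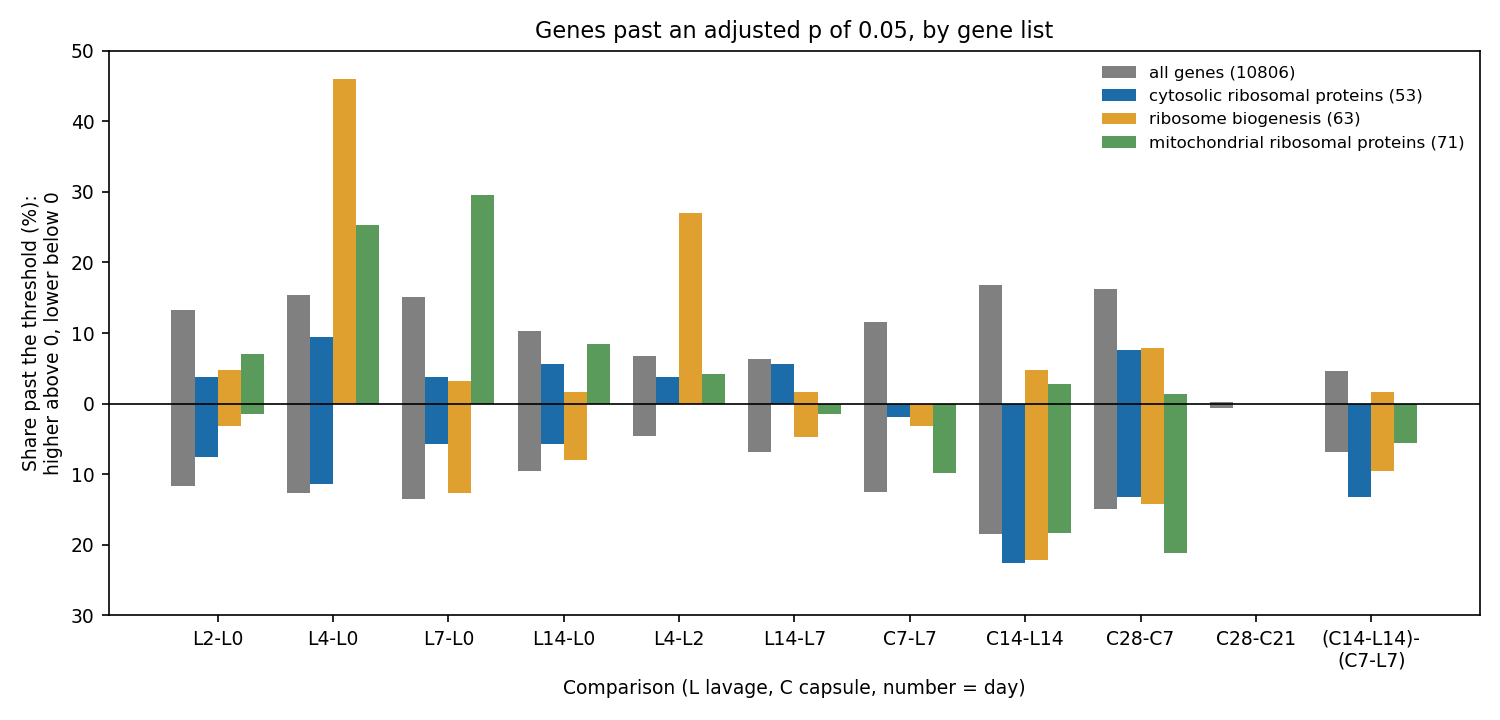
Share of each gene list past an adjusted p of 0.05 in each of the 11 comparisons, higher above 0 and lower below it (percent). The cytosolic ribosomal proteins stay at or below the share of all genes in the lavage comparisons, while ribosome biogenesis genes reach 29 of 63 at lavage day 4 against day 0; capsule day 28 against day 21 has almost no changes.

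Within the capsule, day 28 against day 7 asks how the cells differed between an early and a late capsule. Here 11 members passed, 4 higher and 7 lower (background 31.2%), with a median of -0.04 over the 53 and 0.01 over all genes. Day 7 was on slides 1 and 2 and day 28 on slide 4, so slide and day cannot be told apart. Rpl22 read 10.50 and 10.81 at day 7, 11.14 and 11.42 at day 14, 11.44 and 11.51 at day 21, and 11.71 and 11.73 at day 28. It rose 2.09-fold (log2 1.06, SE 0.16, adjusted p = 0.000334), and each later group lay wholly above day 7. Rpl22l1 went the other way, from 9.72 and 9.83 at day 7 to 8.14 and 7.61 at day 14, 7.36 and 7.79 at day 21, and 7.94 and 7.92 at day 28. It fell 3.59-fold (log2 -1.85, SE 0.20, adjusted p = 2.94e-05), and no later capsule array came near the day 7 pair.

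Rpl36al was detected on neither array of capsule day 28. It read 8.04 and 8.06 at day 7, 5.86 and 5.07 at day 14, 6.51 and 5.38 at day 21, and 5.53 and 5.25 at day 28. It was at least 5.78-fold lower at day 28 than at day 7 (adjusted p = 0.000213), while Rpl36a differed by -0.04 (95% interval -0.30 to 0.23). Rpl4 read 7.51 and 7.40 at day 7 and 6.56 and 6.61 at day 28, 1.82-fold lower (log2 -0.87, SE 0.25, adjusted p = 0.0184). The call of Rpl4 ended without any 1 of the 4 arrays (adjusted p = 0.0589 to 0.0862), and its difference was -0.52 with no background correction. Both Rpl36al and Rpl4 sat low on the scale.

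The other 4 members that fell were Rpl38 (1.68-fold), Rpl36 (1.64-fold), Rpl37a (1.42-fold) and Rpl13a (1.33-fold). Rpl38, Rpl36, Rpl37a, Rpl22l1, Rpl36al and Rpl4 are the 6 members lower both here and at day 14 against lavage. The rises were those of Rpl21 (log2 0.95, SE 0.21, adjusted p = 0.00378), Rps15a (1.6-fold) and Rps14 (1.42-fold), whose human gene lies in the region lost in the 5q- syndrome. Both other probes of Rpl21 gave the same direction, at 1.09 and 0.71. Leaving out any 1 of the 4 arrays ended the call of Rps14, at differences of 0.48 to 0.54. Without replicate 1 of capsule day 7 Rps15a gave 0.37 and did not pass, and its call also ended without either day 28 array. The call of Rps15a ended too under median scaling (adjusted p = 0.167), with the submitters' log2 values (0.0687), without the detection filter (0.074), with a mean-dependent prior (0.062) and in the 2 groups alone (0.085). That of Rpl37a ended without replicate 1 of day 7 (0.109) or replicate 2 of day 28 (0.107). Under median scaling, all genes together had a median of -0.14, and 14 members passed, 3 higher and 11 lower. This count is not set against other genes here.

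Between capsule day 21 and day 28, both on slide 4, 0 members passed in limma (background 0.935%). Of the 53, 49 had a 95% interval inside a 2-fold change either way, a count that is not set against other genes here. At an unadjusted p under 0.05, 3 members passed, a count likewise not set against other genes. No alternative processing gave a member that passed. Fibroblast and mesothelium markers, of which 5 of 10 were measured, had summed levels of 503 to 784 at capsule day 7, 1989 to 2217 at day 14, 2102 to 2176 at day 21 and 1641 to 1741 at day 28. Neutrophil markers went from 8065 to 10718 at capsule day 7 to 2186 to 3277 at day 28. Between capsule day 7 and 28, 5 of 63 ribosome biogenesis genes were higher and 9 lower (background 31.2% of all genes). Of 71 mitochondrial ribosomal protein genes, 1 was higher and 15 lower. The part of these cell types in the later capsule differences was not tested.

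The paralogs differed among themselves. All 5 measured paralogs (Rpl3l, Rpl7l1, Rpl22l1, Rpl36al and Rps27l) passed the F test, beside 17 of the 48 other members and 78.7% of all genes. Rps27l apart, they had mean levels under 14, where 77.3% of members passed. Their highest group means were at lavage day 14 for Rpl3l, at lavage day 4 for Rpl7l1 and Rps27l, at lavage day 0 for Rpl22l1 and at capsule day 7 for Rpl36al. The spans of Rps27l and Rpl7l1, 0.75 and 0.86, were below the median span of 1.05 over all genes. Rpl7l1 read 11.28 and 11.29 at lavage day 0, 11.80 and 11.61 at day 4, and 10.92 and 10.84 at capsule day 28, while Rpl7 had group means of 14.29 to 14.78 and did not pass the F test (adjusted p = 0.0979). Rpl39, whose paralog Rpl39l was not detected, had group means of 14.62 to 15.03 (adjusted p = 0.294). Among members with a promoter, a C or T run of at least 8 letters was present in 15 of the 18 that passed the F test and in 21 of the 25 that did not, and CTCTTTC in 1 of the 18 and 6 of the 25. Of the 16 members with more than 1 kept probe, Rpl27a, Rpl4, Rpl5, Rpl7l1 and Rps19 had every probe past the F test, and Rpl10a and Rps20 had none.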

How the data were processed

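Non-normalised probe intensity and a detection p-value per probe were deposited for 18 Illumina mouse bead arrays, summarised with BeadStudio per the submitters' processing notes. A table of log2 values made with R 2.15.3, per the submitters' processing notes, was also deposited and served as an alternative. No other column was left unused (0 columns).

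Intensities were background-corrected and quantile-normalised with neqc (offset 16) in limma 3.58.1 under R 4.3.3. Of 46632 probes, 29976 had 1 gene symbol, 10 several and 16646 none in the platform annotation; 20985 probes were detected (p under 0.05 on both arrays of at least 1 group), and of those with 1 symbol the probe with the highest mean stood for each gene. One linear model covered the 9 groups (residual df 9, prior df 4.58), with 11 comparisons, 2-sided tests and Benjamini-Hochberg adjustment over 10806 genes. Replicate arrays correlated at 0.989 to 0.993. The members, gene lists and tests were chosen with earlier results of these data known. The fit was tested on simulated data. An "at least" fold uses the dimmest detected signal where a group had no array detected.

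Members described singly were the called, non-overlapping ones with the largest differences in each direction (6 for lavage at day 2 and 14 less day 0, the late less the early capsule, and both capsule less lavage contrasts, and 4 in the other 6 comparisons), the 8 smallest and 4 largest F-test p, the 4 highest and lowest means and every paralog; remaining called members are given by fold. Arrays that do not overlap were thus a condition of naming. All 57 called member comparisons of 2 groups met it, so non-overlap adds no support to a call. Of each pathway list, the 3 genes with the smallest p in a comparison could be named. The arrays numbered 1 and 2 of 6 groups lay on slide 1 and slide 2. Over 15 pairs of groups their deviations correlated at -0.110 to 0.129 (median -0.0072), with 1 above 0.1, so the numbers were not taken as pairs. Alternatives varied the background correction, normalisation, filters, probe, prior, samples and slide block, and left out each array in turn.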

Additional observations from a re-analysis of the deposited data

Results flagged for a closer look

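The capsule minus lavage difference itself differed between day 14 and day 7 for 7 of 53 ribosomal protein genes, by the limma interaction term. Of all genes, 11.5% passed the same test. The change was -2.72 for Rpl36al, -1.97 for Rpl4 and -1.91 for Rpl22l1 on the log2 scale. It was -1.01 for Rps3a1 (adjusted p = 0.0146), -0.76 for Rpl36 (adjusted p = 0.0486), -0.63 for Rpl35a (adjusted p = 0.0411) and -0.62 for Rpl5 (adjusted p = 0.0421). Capsule day 14 was on slide 3 and the other 3 groups on slides 1 and 2, so slide and this change cannot be told apart.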

How the results depend on the processing

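Counts of members past the threshold, in the order of the comparisons above, depended on the processing as follows. The shares of all genes that passed in these settings are not set beside the counts. Asking for at least a 2-fold change left 2, 4, 2 and 2 at lavage day 2, 4, 7 and 14 against day 0, 0 from day 2 to 4 and from day 7 to 14, 5 for capsule against lavage at day 14, 3 for capsule day 28 against 7 and 4 for the interaction. Lavage day 7 against day 0 gave 11 with normexp at an offset of 50 and with no background correction, 9 over genes detected on all 18 arrays and 13 with a mean-dependent prior. Median scaling gave 14 at lavage day 14 against day 0, 5 from day 7 to 14, 2 and 7 for capsule against lavage at day 7 and 14, and 3 for the interaction. The compared groups alone gave 3 at day 14 against day 0, 1 from day 2 to 4, 0 from day 7 to 14, 7 for capsule against lavage at day 14 and 4 for the interaction. From day 2 to 4 there were 6 with no background correction and 5 with the mean-dependent prior, and from day 7 to 14 there were 5 with the offset of 50, 7 with no background correction and 6 with the mean-dependent prior. The lowest-mean probe gave 2 for capsule against lavage at day 7. With the replicate block on the 12 arrays of slides 1 and 2, 0 passed from day 2 to 4, 1 from day 7 to 14 and 10 in the F test, beside 1 from day 2 to 4 and 12 in the F test on those arrays without the block. Leaving out 1 array gave 4 to 6, 6 to 9, 4 to 6 and 2 to 4 against day 0, 0 to 1 from day 2 to 4, 0 to 4 from day 7 to 14, 1 to 2 and 6 to 11 for capsule against lavage, 6 to 9 for capsule day 28 against 7, 0 to 0 against 21, 3 to 6 for the interaction and 19 to 25 in the F test. With the lowest-mean probe Rpl21 at lavage day 4 was 0.13 and Rps19 at day 14 was 0.0064, both turned in sign. Apart from shared samples, the cause of these moves was not tested. Signal near the top of the range and the 2 arrays per group limit small differences.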
